A study of Rattus norvegicus with 18 samples.

Results

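The NMDA receptor subunits are the 7 genes Grin1, Grin2a, Grin2b, Grin2c, Grin2d, Grin3a and Grin3b. They were measured here in the hippocampus of rats given pilocarpine, a model of epilepsy, and of saline-treated rats. Members were found by gene symbol, and 13 of the 33849 gene probes on the array name 1 of these 7 genes, of 12344 genes named in all. All 13 probes were among the 33800 that passed the filter on missing values. Labelled RNA copies (cRNA) made from total RNA of the hippocampus of adult male Wistar rats were hybridised to CodeLink one-colour arrays, 1 array per rat. Pilocarpine, a muscarinic cholinergic agonist given as a single injection after scopolamine methylnitrate, induced status epilepticus (SE), which was stopped with diazepam. The pilocarpine groups were rats taken 3 days after SE (D3, n = 5), rats taken 7 days after SE (D7, n = 5) and rats taken within 12 h of their first spontaneous seizure (Chronic, n = 5). The reference was saline-treated rats without pilocarpine (Control, n = 3), of which 1 array belongs to each of the 3 times, so that Control stands for rats of different times. The pilocarpine groups hold no rats that failed to develop SE or died of it.

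The NMDA receptor is a glutamate-gated cation channel that also needs glycine or D-serine and that opens only when the membrane is depolarised, since magnesium blocks its pore. It lets calcium in, and it is best known in the hippocampus for starting long-term changes in synaptic strength and, when overactive, for injury to neurons. Each channel joins GluN1, the obligatory subunit made from Grin1, with GluN2 subunits that bind glutamate (Grin2a to Grin2d) or with the glycine-binding GluN3 subunits (Grin3a and Grin3b). GluN2A and GluN2B are the main GluN2 subunits of hippocampal principal neurons, GluN2D is found mostly in interneurons, and GluN2C is known from cerebellar granule cells, thalamus and astrocytes.

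Values are the authors' normalized intensities, spot signal above local background, scaled with a single constant for each array to place the median spot near 1. Differences are log2 fold changes ± standard error from 1 limma fit of the 4 groups, with p adjusted over all 33800 probes. "Fell" and "rose" mark an adjusted p under 0.05, and a size of 2-fold or more is stated where it was reached. Intensities of different probes depend on the probe and are not compared as levels of their genes.

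The obligatory subunit gene, Grin1, fell at all 3 times, and so did Grin2d, whereas Grin2b fell at D3 and Grin3a fell in Chronic. Taking for each gene its brightest probe, 3 of 7 genes (Grin1, Grin2b and Grin2d) fell at D3, when 14.2% of all tested probes fell. At D7 2 of 7 genes (Grin1 and Grin2d) fell, against 11.9% of all probes. In Chronic 3 of 7 genes (Grin1, Grin2d and Grin3a) fell, against 9.80% of all probes. With the deposited scaling no subunit gene rose at any time, and 7.91%, 6.20% and 4.86% of all probes did so at the 3 times. Under quantile normalization, which forces the same distribution of intensities on every array, 3, 1 and 2 of 7 genes fell. In that fit 1, 1 and 0 rose, the riser at D3 and D7 being Grin2c. Counted by probe, D3 had 6 of 13 falling, D7 had 5 and Chronic had 6. Across the 3 times the 7 genes had median log2 fold changes of -0.80, -0.48 and -0.51, beside -0.12, -0.06 and -0.08 over all probes. Grin3a in Chronic was the 1 subunit gene with a fall of at least 2-fold, a size reached by 0.612% of all probes there. At D3 and D7 none of the 7 genes passed at 2-fold in limma or in the methods' t-test, adjusted or not, and 1.17% and 0.432% of all probes did so downward, although 8 probes at D3 and 6 at D7 had an unadjusted limma p under 0.05.

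**Figure D1:**
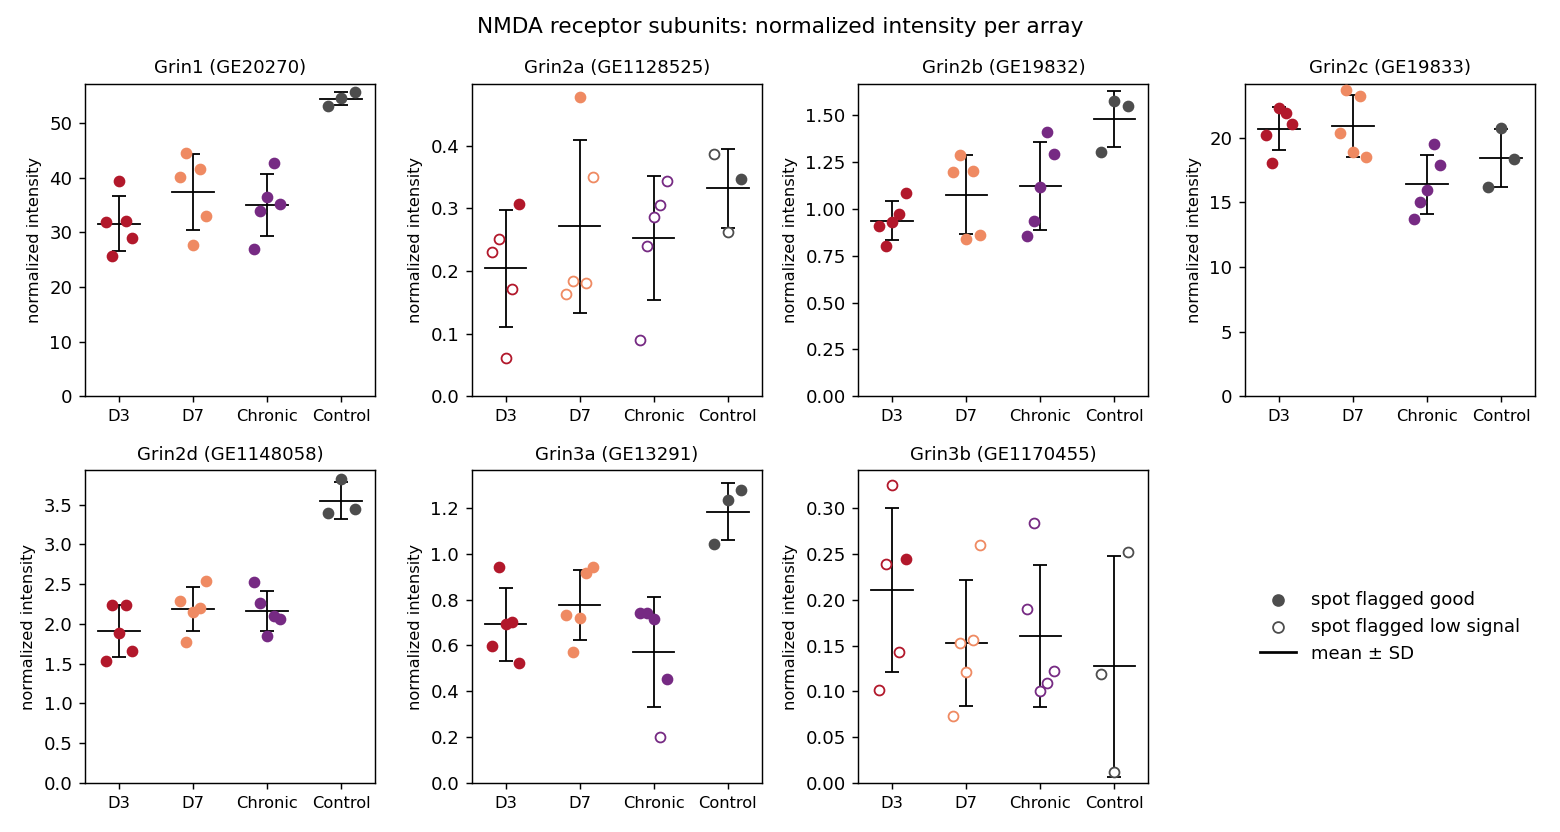
Normalized intensity (linear axis from 0) of the brightest probe of each of the 7 subunit genes in every array, grouped as D3, D7, Chronic and Control. Each point is 1 rat, open points are spots flagged as low signal, and black lines are the mean ± SD; all 15 pilocarpine arrays lie below all 3 Control arrays for Grin1, Grin2d and Grin3a, and Grin2a and Grin3b lie near background.

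Grin1 lies on chromosome 3 (GRCr8, chr3:28501836-28528754, minus strand). Its RefSeq sequence upstream of the start is shown because Grin1 fell at every time, on all of its probes, and because it holds a short motif known from genes that respond to neuronal activity. The 250 bases before the start are at chr3:28528755-28529004, written 5′ to 3′ on the strand of the gene, with matches to TGACG, the CRE half-site that CREB can bind, or to its reverse complement CGTCA, in capitals.
Grin1 upstream: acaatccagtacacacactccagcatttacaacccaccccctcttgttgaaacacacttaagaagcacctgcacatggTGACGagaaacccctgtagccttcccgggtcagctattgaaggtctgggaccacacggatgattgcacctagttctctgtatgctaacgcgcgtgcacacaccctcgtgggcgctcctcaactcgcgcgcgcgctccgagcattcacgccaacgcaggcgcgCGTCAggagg
A stretch of 30 bases after the start, at chr3:28528710-28528739, is shown for its overlapping matches to GCGGGGGCG, a site of the EGR factors, and to GGGCGG, the GC box of the SP factors, together in capitals; it also holds CGTCA, left in lower case.
Grin1 after the start: gcgtcaggaaGCGGGGGCGGtgggaggggt
On both strands of windows of this kind (250 bases before to 50 after a start), TGACG occurred in 21.2% of 33469 RefSeq promoters, GGGCGG in 33.1% and GCGGGGGCG in 2.73%, while the full CRE TGACGTCA, which is not in the Grin1 window, occurred in 1.83%. The windows of Grin2c, Grin2d and Grin3a held none of these 4 motifs, and those of Grin2a, Grin2b and Grin3b were not analysed here. A match describes the letters of the window and not binding of a factor.

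Grin1 was measured by 3 probes. The brightest, GE20270, read 31.9, 25.7, 39.3, 32.1 and 29.0 in the D3 rats, 40.2, 44.5, 27.7, 41.6 and 32.9 in the D7 rats and 27.0, 33.8, 36.4, 42.7 and 35.2 in the Chronic rats, against 53.2, 54.6 and 55.6 in Control. Every pilocarpine rat was below every Control rat, with the lowest D7 value in replicate 33 and the highest Chronic value in replicate 44. The difference from Control was -0.80 ± 0.16 at D3 (-42.5%; adjusted p = 0.0017), -0.56 ± 0.16 at D7 (-32.3%; adjusted p = 0.0207) and -0.65 ± 0.16 in Chronic (-36.3%; adjusted p = 0.0117). Probe GE22164, designed on the Grin1 reference transcript, ran at D3 between 14.1 and 19.8, at D7 between 12.04 and 20.5 and in Chronic between 14.5 and 21.9, against 24.4 to 28.5 in Control, and differed by -0.70, -0.64 and -0.62, each ± 0.15 (adjusted p = 0.00319, 0.00958 and 0.0124). Probe GE1170840 differed by -0.64, -0.54 and -0.49, each ± 0.16 (adjusted p = 0.00752, 0.0253 and 0.0476), and its highest pilocarpine value, 38.1 in D7, was just below its lowest Control value, 38.5. For all 3 probes, then, the 15 pilocarpine arrays and the 3 Control arrays did not overlap. Ranges that lay wholly below Control at a given time were seen for 22.7% of all tested probes at D3, 16.8% at D7 and 16.4% in Chronic. The share of probes with all 15 pilocarpine arrays below Control was not counted, here or for the other genes.

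Some Grin1 calls depended on single arrays or on the scaling. Without Control replicate 26, 36 or 47 the brightest probe at D7 had an adjusted p of 0.0598, 0.0682 or 0.0595, with differences of -0.58, -0.56 and -0.55. Under quantile normalization, which forces the same distribution of intensities on every array, the same probe differed by -0.50 at D3 (adjusted p = 0.0123), -0.30 at D7 (0.154) and -0.39 in Chronic (0.0676). GE1170840 then passed at no time (-0.34, -0.27 and -0.23; adjusted p = 0.108, 0.238 and 0.35), and GE22164 lost only its Chronic call (adjusted p = 0.0568). The Chronic call of GE1170840 was close to the threshold and was kept in 3 of 18 fits that each left out 1 array, with adjusted p up to 0.18 (without Control replicate 36). Under scaling at percentile 75 this probe did not pass at D7 or in Chronic (adjusted p = 0.0592 and 0.112). At D7 it was also lost without D7 replicate 31 or Control replicate 26 or 36 (adjusted p = 0.052, 0.0691 and 0.113). Without Control replicate 36, GE22164 did not pass at D7 or in Chronic (adjusted p = 0.0537 and 0.0669).

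Grin2d, whose GluN2D subunit gives slowly closing channels with weak magnesium block, showed the lowest adjusted p of the 7 genes at each time. Its brightest probe, GE1148058, read 1.53, 2.24, 1.88, 2.24 and 1.65 at D3, 2.28, 1.77, 2.15, 2.20 and 2.54 at D7, then 2.53, 2.26, 1.85, 2.10 and 2.07 in Chronic, against 3.39, 3.81 and 3.44 in Control. The pilocarpine and Control ranges were separate at all 3 times. The difference was -0.91 ± 0.14 at D3 (-46.8%; adjusted p = 0.000242), -0.70 ± 0.14 at D7 (-38.6%; adjusted p = 0.00335) and -0.72 ± 0.14 in Chronic (-39.3%; adjusted p = 0.00363). The other probe, GE21562, gave -0.93 ± 0.16, -0.71 ± 0.15 and -0.69 ± 0.15 (adjusted p = 0.000538, 0.00457 and 0.00647). Its spot in D3 replicate 14 was flagged irregular and left out, so that D3 had 4 values, 1.23 to 1.73, against 2.49 to 2.60 in Control. Both probes stayed past the threshold at all 3 times under quantile normalization, under scaling at percentile 75 and without any 1 array.

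Grin2b encodes GluN2B, the ifenprodil-sensitive GluN2 subunit that predominates early in life and persists in the adult hippocampus. Probe GE19832 read 0.907, 0.801, 0.929, 0.972 and 1.08 at D3, 1.196, 1.29, 0.840, 1.202 and 0.860 at D7, then 0.854, 0.938, 1.12, 1.41 and 1.29 in Chronic, against 1.31, 1.58 and 1.55 in Control. The D3 and D7 rats were all below Control, and Chronic replicate 44 reached into the Control range. The difference was -0.66 ± 0.18 at D3 (-36.6%; adjusted p = 0.0134), while -0.48 ± 0.18 at D7 (adjusted p = 0.074) and -0.42 ± 0.18 in Chronic (adjusted p = 0.128) did not pass. Without Control replicate 36 or 47 the D3 value was -0.61 or -0.62 and no longer passed (adjusted p = 0.0627 and 0.0511). With D7 replicate 32 left out, D7 passed at -0.55 (adjusted p = 0.0461). The second probe, GE1205376, lay in the same direction with smaller differences that did not pass, -0.38 ± 0.21 at D3 (0.818 to 1.01 in D3, against 1.03 to 1.30 in Control; adjusted p = 0.208), -0.23 at D7 and -0.20 in Chronic.

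Grin3a encodes GluN3A, which lowers the calcium permeability and magnesium block of the channels it joins and is most abundant in the young brain. Its brightest probe, GE13291, read 0.596, 0.944, 0.692, 0.704 and 0.525 at D3, 0.732, 0.570, 0.720, 0.917 and 0.942 at D7, then 0.743, 0.742, 0.714, 0.199 and 0.453 in Chronic, against 1.04, 1.23 and 1.28 in Control. All pilocarpine rats were below Control, and the Chronic group was spread by replicate 44, whose spot was flagged as low signal. The difference in Chronic was -1.20 ± 0.33 (-56.5%; adjusted p = 0.0199). At D3 it was -0.80 ± 0.33 (adjusted p = 0.0889) and at D7 -0.63 ± 0.33 (adjusted p = 0.196). Which time passed depended on the fit. With only the groups compared, D3 passed (adjusted p = 0.00662) and Chronic did not (adjusted p = 0.0666), and the methods' t-test after adjustment gave 0.0343 at D3 and 0.197 in Chronic. Without Chronic replicate 44 the Chronic difference was -0.86 (adjusted p = 0.0174), which is less than 2-fold, and D3, whose own values were unchanged, passed at -0.80 (adjusted p = 0.0125). Without Control replicate 26, 36 or 47 the Chronic call did not pass (adjusted p = 0.0519, 0.0763 and 0.0637). Probe GE21372 differed from Control at the 3 times by -0.60 ± 0.26, -0.26 ± 0.26 and -0.68 ± 0.26 (adjusted p = 0.105, 0.539 and 0.0866). It read 0.319 to 0.958 in Chronic, against 0.769 to 1.07 in Control, again with replicate 44 lowest and flagged low. It passed in Chronic at -0.86 (adjusted p = 0.0292) when replicate 41, the highest of that group, was left out.

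**Figure D2:**
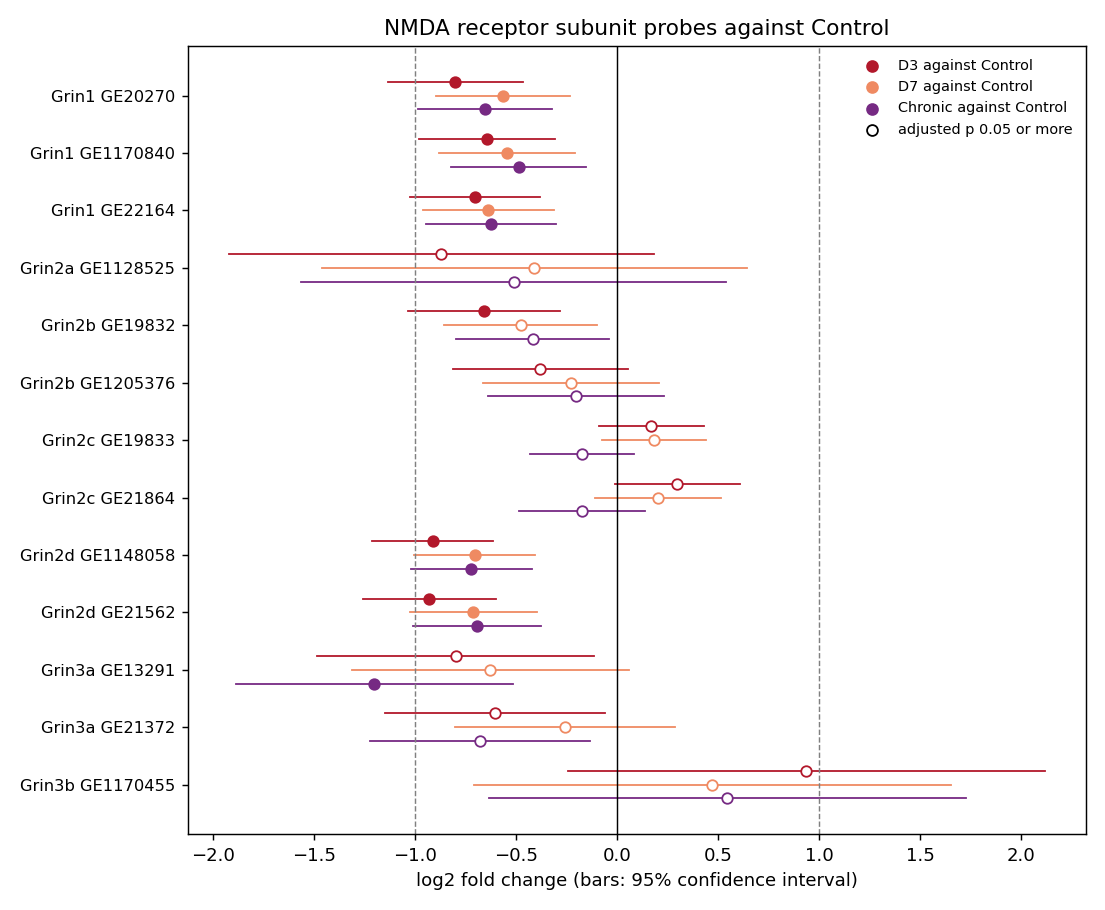
Log2 fold change against Control (x axis) with its 95% confidence interval for the 13 probes of the 7 subunit genes, with D3, D7 and Chronic in separate colours. Filled points have an adjusted p under 0.05 and dashed lines mark 2-fold; the filled points belong to Grin1, Grin2b, Grin2d and Grin3a and all lie below 0, and the intervals of Grin2a and Grin3b are the widest.

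Grin2c stood apart from the other well measured subunits. Its brightest probe, GE19833, read 20.2, 18.1, 22.3, 21.9 and 21.1 at D3, 20.4, 23.7, 18.9, 23.2 and 18.5 at D7, then 13.7, 15.01, 15.97, 19.5 and 17.9 in Chronic, against 16.2, 20.8 and 18.4 in Control. All 3 pilocarpine groups overlapped with Control. The differences were 0.17 ± 0.12 at D3 (95% interval -0.09 to 0.43; adjusted p = 0.359), 0.18 ± 0.12 at D7 (-0.08 to 0.44; adjusted p = 0.329) and -0.17 ± 0.12 in Chronic (-0.43 to 0.09; adjusted p = 0.388). Probe GE21864 differed by 0.30 ± 0.15, 0.20 ± 0.15 and -0.17 ± 0.15 (adjusted p = 0.163, 0.368 and 0.481). Under quantile normalization GE19833 was past the threshold and higher at D3 (0.41; adjusted p = 0.00647) and at D7 (0.40; adjusted p = 0.0129), and its Chronic difference turned to 0.04. GE21864 passed at D3 under scaling at percentile 75 (0.35; adjusted p = 0.0494).

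Between times, Chronic had lower Grin2c values than the latent-period groups, short of the threshold with the deposited scaling. GE21864 read 1.99, 2.04, 2.38, 3.00 and 2.92 in Chronic, against 3.15, 3.02, 3.58, 3.53 and 3.60 at D3. All 5 Chronic rats were below all 5 D3 rats, which held for 3.31% of all probes in this direction. The difference was -0.47 ± 0.13 (adjusted p = 0.0549), and GE19833 gave -0.34 ± 0.11 (adjusted p = 0.0975). GE21864 passed without D7 replicate 33 (-0.47; adjusted p = 0.0413), without Chronic replicate 44 (-0.55; adjusted p = 0.0329), without Chronic replicate 45 (-0.54; adjusted p = 0.0278), under quantile normalization (-0.43; adjusted p = 0.0448) and under scaling at percentile 75 (-0.42; adjusted p = 0.0411). It did not pass in 15 of 18 fits that each left out 1 array, with adjusted p up to 0.142. GE19833 did not pass in any of these 18 fits (adjusted p from 0.0569 to 0.213), and it passed under quantile normalization (-0.37; adjusted p = 0.0212). Against D7 the Chronic differences were -0.38 ± 0.13 for GE21864 (adjusted p = 0.32) and -0.35 ± 0.11 for GE19833 (adjusted p = 0.23).

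Among the other subunits no probe separated the times. None of the 13 probes passed in D7 against D3, Chronic against D3 or Chronic against D7 by limma or by the methods' t-test after adjustment, comparisons in which 0.885%, 2.72% and 0.178% of all probes did so by limma. At an unadjusted limma p under 0.05 the counts were 0, 2 and 2 of 13, and all of these were the Grin2c probes. The 3 comparisons with Control share the same 3 arrays, and the falls of Grin2b at D3 and of Grin3a in Chronic are not shown to be particular to those times. Grin2b in Chronic against D3 differed by 0.24 ± 0.16 (adjusted p = 0.472), and Grin3a in Chronic against D7 by -0.57 ± 0.28 (adjusted p = 0.511).

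Grin2a and Grin3b were near background. The Grin2a probe ran at D3 between 0.0609 and 0.306, at D7 between 0.164 and 0.478 and in Chronic between 0.0891 and 0.343, against 0.262 to 0.387 in Control, and 3 of its 18 spots were flagged good. Its differences were -0.87 ± 0.50 at D3, -0.41 ± 0.50 at D7 and -0.51 ± 0.50 in Chronic (adjusted p = 0.238, 0.622 and 0.548). The Grin3b probe read at D3 0.101 to 0.325, at D7 0.0728 to 0.260 and in Chronic 0.100 to 0.284, against 0.0115 to 0.252 in Control, with 1 spot flagged good. GluN2A is the main adult partner of GluN1 in the hippocampus, and a low reading of its 1 probe does not measure how much of the transcript was present.

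On the same array the ratio of 1 subunit to another changes only where the subunits changed unequally. The log2 ratio of Grin2b to Grin1 was -5.07 ± 0.24 at D3, -5.12 ± 0.08 at D7 and -4.97 ± 0.15 in Chronic, against -5.21 ± 0.12 in Control (SD, n = 5, 5, 5 and 3). Its difference from Control was 0.14, 0.09 and 0.23. In Chronic the log2 ratio of Grin3a to Grin1 was -6.08 ± 1.01, against -5.53 ± 0.12 in Control (SD, n = 5 and 3), a difference of -0.55. None of the 12 ratios compared, of Grin2a, Grin2b and Grin3a to Grin1 and of Grin2b to Grin2a at the 3 times, passed an exact two-sided permutation test (adjusted p = 0.964 for each, over 12 tests), and the smallest p that 5 against 3 arrays allow is 0.0357. A single ratio therefore could not have passed after adjustment, so the test does not show that the ratios were alike, and the ratios that use Grin2a rest on a probe near background.

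**Figure D3:**
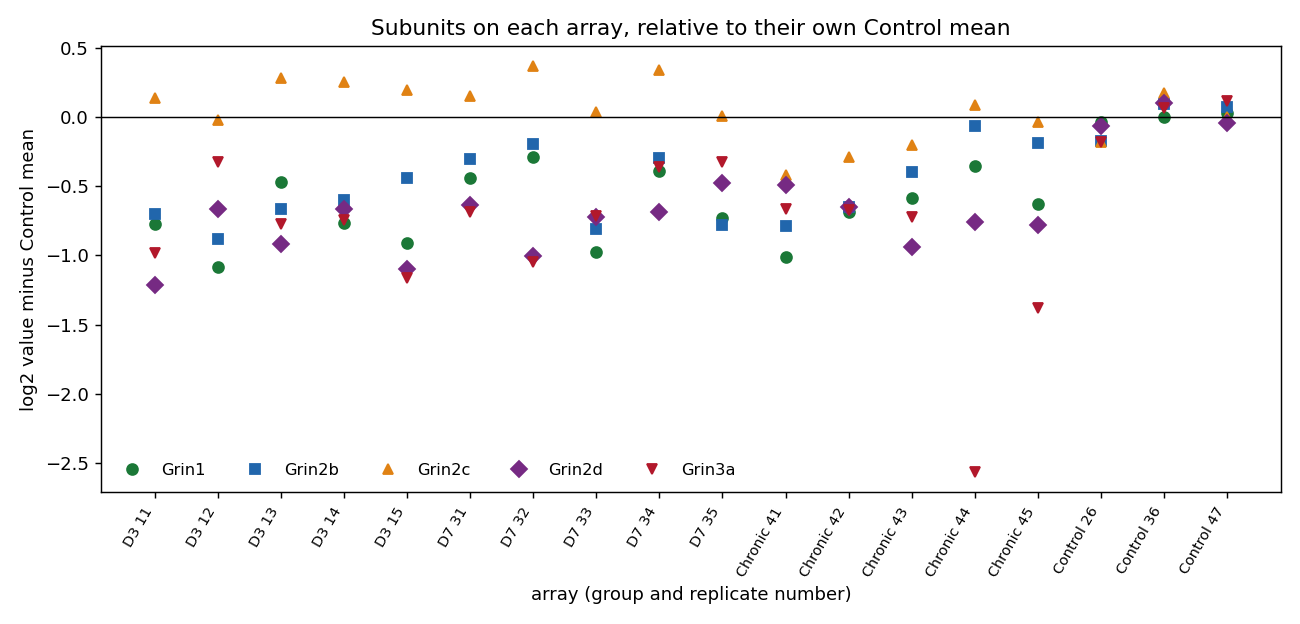
Log2 value minus the Control mean of the same probe (y axis) for Grin1, Grin2b, Grin2c, Grin2d and Grin3a on each of the 18 arrays (x axis, group and replicate number), 1 marker per subunit. Grin1, Grin2b and Grin2c move up and down together from rat to rat within a group, and Grin3a in Chronic replicate 44 lies farthest from 0.

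Rats of 1 group also differed among themselves. Over the 18 arrays, deviations from the group means correlated between Grin1 and Grin2b (Pearson r = 0.77), Grin1 and Grin2c (0.79) and Grin2b and Grin2c (0.89). Grin3a deviated the other way from these genes, with r = -0.47 to Grin1, -0.64 to Grin2b and -0.60 to Grin2c, and so did Grin2d (-0.42, -0.47 and -0.35). Grin2d and Grin3a deviated together (0.43). The values of Grin3a include its low spot in Chronic replicate 44, where Grin1, Grin2b and Grin2c were the highest of their group. These correlations are descriptions over arrays that share 1 scaling constant for all probes, and they carry no test. D7 replicate 33 was low in Grin1 and Grin2b and had the lowest mean correlation with its own group over all probes (0.952, against 0.957 to 0.968 for the other 17 arrays). Probes of the same gene correlated over the arrays at 0.78 to 0.96 for Grin1, 0.86 for Grin2b, 0.97 for Grin2c, 0.94 for Grin2d and 0.85 for Grin3a.

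Among 8474 genes whose spots were good on all 18 arrays, the genes with the pattern most like Grin1 were Phyhip (r = 0.96), Ica1 (0.96) and Iqsec3 (0.95). Among those most like Grin2b were Pja2 (0.92) and Ppp3r1 (0.92), of which Ppp3r1 encodes the regulatory subunit of calcineurin. Those most like Grin2d were Gapdh (0.87), Gpc3 (0.87) and Uqcc1 (0.86), and those most like Grin2c were Zfyve21 (0.78), Gemin2 (0.77) and Derl1 (0.76). Each r covers 18 arrays of the same 4 groups, so that any gene with a difference from Control of like direction shares part of it. Grin3a was left out of this ranking because of its low spot in Chronic replicate 44.

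The hippocampus holds many cell types, and in whole tissue fewer cells of a type and less RNA per cell cannot be told apart. Over all tested probes 14.2%, 11.9% and 9.80% fell at D3, D7 and in Chronic. Of 10 marker genes listed for excitatory neurons 6 were measured, and 6, 4 and 3 of them fell at these times. Under quantile normalization the counts were 6, 1 and 2, and without D7 replicate 33 they were 6, 2 and 3. The summed intensity of the 5 with a value on every array lay at D3 between 54.2 and 73.2, at D7 between 50.2 and 84.6 and in Chronic between 55.0 and 93.2, against 108 to 119 in Control. These sums did not overlap with Control either, and D7 replicate 33 (50.2) and Chronic replicate 44 (93.2) were again the lowest and the highest of their groups. Beside Grin2d, 5, 4 and 4 of 9 measured interneuron markers fell, among them Pvalb, the parvalbumin gene (-1.20 ± 0.20 at D3; adjusted p = 0.000359), Slc32a1, the vesicular GABA transporter (-0.76 ± 0.12; adjusted p = 0.000336) and Gad1 (-0.57 ± 0.13; adjusted p = 0.00393). Npy rose at D3 (1.40 ± 0.48; adjusted p = 0.0421), and the summed interneuron markers, which include it, overlapped between groups (at D3 88.9 to 123, at D7 68.9 to 106, in Chronic 78.0 to 142, against 110 to 115 in Control). Under quantile normalization 3, 1 and 2 interneuron markers fell, and without D7 replicate 33 the counts were 5, 3 and 5. Of 7 markers listed for neurons in general 3 were measured, 2, 1 and 1 of them fell (0 at each time under quantile normalization), and the Snap25 probe was good on only 1 array. None of the measured excitatory or interneuron markers was flagged as low signal on every Control array. Whether cell makeup differed, and how far it entered the subunit values, was not tested.

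Glial and neighbouring-tissue markers moved differently. Over all tested probes 7.91%, 6.20% and 4.86% rose at D3, D7 and in Chronic. Of 8 astrocyte markers 5, 3 and 2 rose at these times, and S100b fell at D3. Their summed intensity lay at D3 between 459 and 482, at D7 between 408 and 459 and in Chronic between 284 and 408, against 308 to 331 in Control. The Chronic sums, like the values of Grin2c probe GE21864, lay below those of D3 in every rat. This was not particular to astrocyte markers. The summed endothelial markers also lay lower in every Chronic rat (36.6 to 44.3, against 50.8 to 60.4 at D3). The brighter Grin2c probe, GE19833, overlapped between Chronic and D3. Of 8 microglial and macrophage markers 8, 8 and 7 rose. Of 4 measured markers of thalamus and neighbouring regions, Lef1 rose at D7 and Tcf7l2 in Chronic, with summed levels that at D3 ran from 11.4 to 13.8, at D7 from 11.6 to 16.4 and in Chronic from 11.2 to 29.7, against 8.02 to 10.3 in Control. The 29.7 belongs to Chronic replicate 41, which also had the lowest Grin1 (GE20270) and Grin2c values of its group. How far glial makeup or dissection entered the subunit values was not tested.

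**Figure D4:**
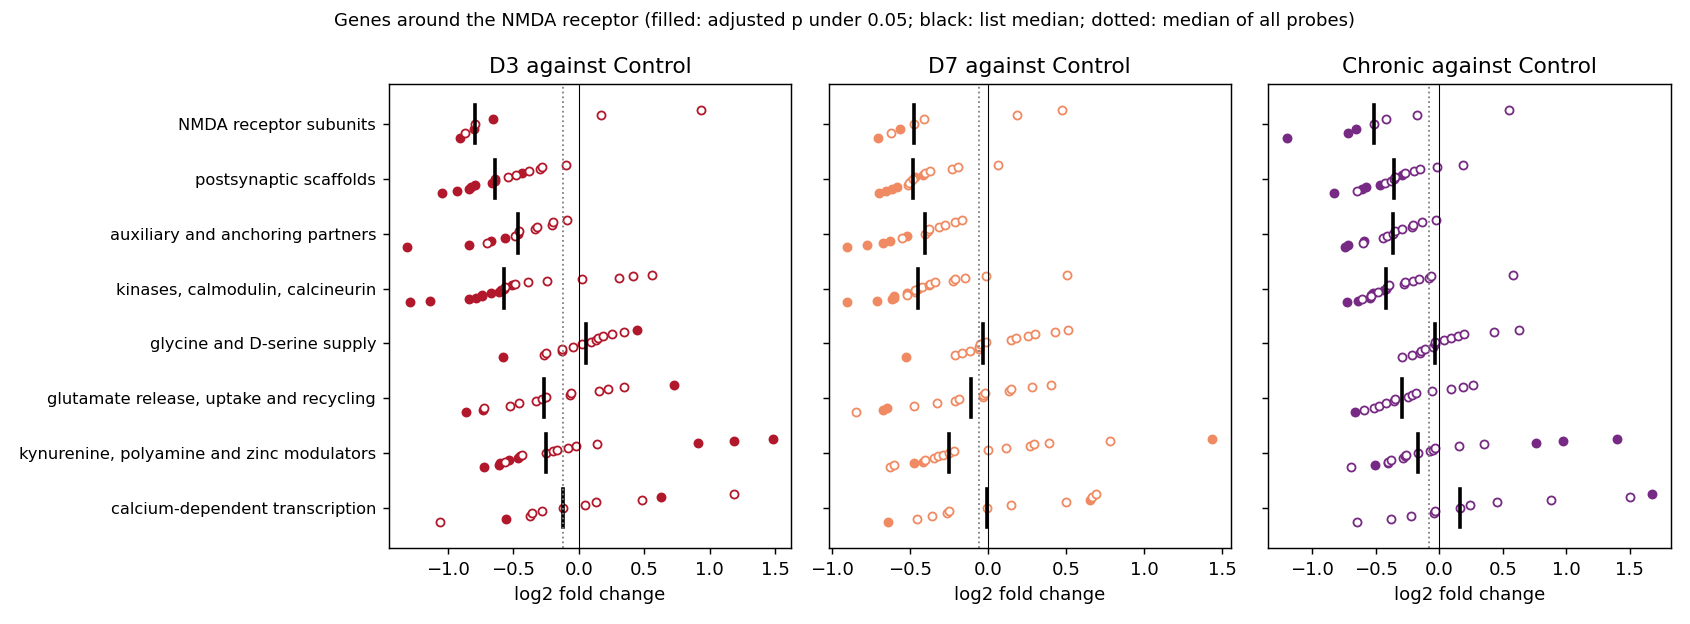
Log2 fold change against Control (x axis) of the measured genes of 8 lists around the NMDA receptor (rows), at D3, D7 and in Chronic (panels), 1 point per gene. Filled points have an adjusted p under 0.05, black bars are list medians and the dotted line is the median of all probes; scaffolds, anchoring partners and kinases lie mostly below 0, and filled points above 0 occur among the supply, transport, modulator and transcription genes.

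Scaffold genes encode the proteins that hold the receptor in the postsynaptic density. Of 15 measured scaffold genes 9, 7 and 5 fell at D3, D7 and in Chronic, against 14.2%, 11.9% and 9.80% of all probes, and none rose. Their median log2 fold change was -0.64, -0.49 and -0.36, beside -0.10, -0.12 and -0.12 over all named genes. Dlg4, encoding PSD-95, fell at D3 (-0.64 ± 0.22; adjusted p = 0.0421). The largest fall in the list was that of Dlg3, encoding SAP102, which averaged 2.79 at D3, against 5.74 in Control (-1.04 ± 0.21; adjusted p = 0.00188), and 5.04 at D7 (-0.23 ± 0.20; adjusted p = 0.451). Shank1, Shank2 and Shank3 and Dlg1 and Homer2 fell at all 3 times, with Shank3 at -0.93 ± 0.13 at D3 (adjusted p = 9.4e-05). Under quantile normalization 7, 3 and 2 scaffold genes fell, and without D7 replicate 33 the counts were 10, 4 and 7.

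Among trafficking and anchoring partners, 5, 5 and 3 of 13 fell, against 14.2%, 11.9% and 9.80% of all probes, and none rose. Lin7b, a member of the LIN7 complex that carries GluN2B along microtubules, averaged 4.89 at D3, 6.57 at D7 and 7.37 in Chronic, against 12.1 in Control (-1.31 ± 0.17, adjusted p = 3.68e-05 at D3; -0.91 ± 0.17 and -0.72 ± 0.17 later, adjusted p = 0.00166 and 0.00858). Actn2, encoding the alpha-actinin that links the receptor to actin, fell at all 3 times (-0.67, -0.78 and -0.74, each ± 0.19). Under quantile normalization the counts were 4, 3 and 2, and without D7 replicate 33 they were 7, 3 and 5.

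Kinases, calmodulins and phosphatases that act on the receptor or are driven by its calcium fell in 11, 7 and 7 of 19 measured genes. None rose, and 14.2%, 11.9% and 9.80% of all probes fell. Camk2a, encoding the alpha subunit of CaMKII and also on the marker list of excitatory neurons, was at 19.3 on average at D3, against 40.4 in Control (-1.14 ± 0.29; adjusted p = 0.008), and its Chronic value, 35.2, did not differ beyond the error (-0.21 ± 0.29; adjusted p = 0.681). Calm2, Ppp3cb, Ppp3r1 and Cdk5 were among those that fell at all 3 times. Under quantile normalization the counts were 8, 3 and 2, and without D7 replicate 33 they were 13, 5 and 9. The calls at D7 and in Chronic in these 3 lists thus depend on how the arrays were scaled, and the directions of their medians did not change.

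Genes that supply or clear the transmitter and co-agonists gave calls in both directions. Of 14 glycine and D-serine genes Amt, of the glycine cleavage system, rose at D3 (0.44 ± 0.15; adjusted p = 0.0377) and Dao, the D-amino acid oxidase, fell at D3 and D7 (-0.58 ± 0.17 and -0.53 ± 0.17; adjusted p = 0.0205 and 0.0387). Slc1a5, the neutral amino acid transporter ASCT2, had the largest difference of that list (0.63 ± 0.29 in Chronic; adjusted p = 0.158) and was good on 8 of 18 arrays. Of 14 glutamate genes Slc17a7, the vesicular transporter VGLUT1 and a marker of excitatory neurons, fell at all 3 times (-0.73, -0.65 and -0.67, each ± 0.17; adjusted p = 0.00478, 0.0138 and 0.0146). Gls2, a glutaminase, fell at D3 and D7 (-0.86 and -0.67, each ± 0.18; adjusted p = 0.00239 and 0.0161), and Slc17a6, the vesicular transporter VGLUT2, differed by -0.85 ± 0.41 at D7 (adjusted p = 0.165). Slc1a2, encoding the astrocytic transporter GLT-1, rose at D3 (0.72 ± 0.19; adjusted p = 0.00997). Falls numbered 1, 1 and 0 of 14 in the first list and 2, 2 and 1 of 14 in the second. These counts lie near or below the shares of all probes that fell (14.2%, 11.9% and 9.80%). Each list had 1 rise, at D3, when 7.91% of all probes rose. Under quantile normalization the falls were 1, 0 and 0, then 2, 1 and 0. The Dao call at D7 and the Slc17a7 call in Chronic were thus lost. Scaling at percentile 75 and leaving out D7 replicate 33 also lost Dao at D7.

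Some enzymes of the kynurenine pathway, which yields ligands of the NMDA receptor, were higher than Control. Kmo, which makes 3-hydroxykynurenine on the branch to the agonist quinolinic acid, averaged 0.442 at D3 and 0.433 in Chronic, against 0.155 in Control, and rose by 1.48 ± 0.39 at D3 and 1.40 ± 0.39 in Chronic (adjusted p = 0.011 and 0.023). Its Control mean lay below that of the Grin2a probe (0.332), which was near background, so the size of the Kmo rise is uncertain. Aadat, an aminotransferase that makes the antagonist kynurenic acid, averaged 3.63 at D3, 4.33 at D7 and 3.19 in Chronic, against 1.59 in Control (1.19, 1.44 and 0.97, each ± 0.23; adjusted p = 0.00144, 0.000679 and 0.0101). Qprt, which consumes quinolinic acid, rose at D3 and in Chronic (0.91 and 0.77, each ± 0.24; adjusted p = 0.0107 and 0.038). Haao and Kyat3, of the same pathway, and Slc30a3, the zinc transporter of glutamatergic vesicles, fell at D3 (-0.47 ± 0.14, -0.53 ± 0.15 and -0.72 ± 0.24). In the whole list of 17 kynurenine, polyamine and zinc genes 3 rose and 6 fell at D3, 1 rose and 2 fell at D7, and 3 rose and 2 fell in Chronic. Under quantile normalization 3 rose and 4 fell at D3, 2 rose and 0 fell at D7, and 1 rose and 0 fell in Chronic. At most 1 of the Chronic rises of Kmo, Aadat and Qprt was thus kept. Over all probes 14.2%, 11.9% and 9.80% fell at the 3 times, and 7.91%, 6.20% and 4.86% rose.

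Of 11 calcium-dependent transcription genes, Fos, an immediate early gene, rose in Chronic (1.68 ± 0.43; adjusted p = 0.015), with a mean of 17.4, against 5.01 in Control. Nfatc3 rose at D3 and D7 (0.62 ± 0.16 and 0.65 ± 0.16; adjusted p = 0.0075 and 0.0091), and Camk4 fell at both times (-0.55 ± 0.17 and -0.64 ± 0.17; adjusted p = 0.0241 and 0.0148). In this list 1, 1 and 1 genes rose and 1, 1 and 0 fell at the 3 times. Over all probes 7.91%, 6.20% and 4.86% rose, and 14.2%, 11.9% and 9.80% fell.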

How the data were processed

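Gene expression was measured in rat hippocampus on 18 one-colour CodeLink arrays. The authors scanned the arrays and subtracted the local background, and the deposited normalized intensity is that signal divided by 1 constant per array (97.3 to 190), as checked on the files; the deposited series value table holds the same intensity values in 33970 of its 33993 lines, and 23 lines are empty. Good spots made up 66.0% to 76.0% of gene probes per array, and the number of arrays limits the precision. The platform annotation named 16740 probes and RefSeq accessions 205 more, while 165 named several genes and 16739 none. Gene coordinates and promoter sequences are from RefSeq (GRCr8). Probe sequences were not used here.

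Spots with flags other than good or low signal (0.5% to 1.1%) were set to missing, values were raised to the percentile 1 of positive values on each array, and log2 was taken. A probe needed 3 values in every pilocarpine group and 2 in Control, and limma 3.58.1 under R 4.3.3 gave the tests (1 model of 4 groups, eBayes with trend), with Benjamini-Hochberg adjustment. The median residual SD was 0.291 on the log2 scale. Ratios were tested by exact permutation. Where a gene has several probes, the one with the highest mean stands for it. All 13 subunit probes are described; of the other lists, the genes past the threshold at 2-fold in any comparison with Control, or otherwise the 2 with the largest change, were to be named, and others named were chosen after their values were seen. Some genes that the rules would name are not reported here. Motif matches were likewise chosen after looking at the sequences. The members, lists and tests were chosen with earlier results of these data known. The script was tested on simulated data. Each array is labelled as a separate hippocampus sample, so p-values measure the spread between these arrays, and the replicate numbers pair no rats. Alternatives were other scalings (quantile, percentile 75), flags and floors, dim-probe filters, fits of only the groups compared, Control arrays of the same time, the methods' t-test and leaving out each array; robust estimation and the counts without D7 replicate 33 were added after seeing the data.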

Additional observations from a re-analysis of the deposited data

Results flagged for a closer look

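Among the 39 groups of 4 or 5 spots examined for the 13 subunit probes, 3 held a rat whose gap to its nearest neighbour took up most of the group's range, where chance gives about 1 in 20. The second Grin2d probe (GE21562) read 1.73 in D3 replicate 12, and the gap to the other 3 values, 1.23 to 1.24, was 0.972 of the range on the log2 scale. The brighter Grin2d probe read 2.24 in this rat and also in replicate 14, whose spot for GE21562 was left out as irregular. The second Grin3a probe (GE21372) read 1.08 in D7 replicate 35, 0.713 of the range above the next rat, and the brighter Grin3a probe was also highest there (0.942). The Grin2a probe read 0.0891 in Chronic replicate 41, 0.736 of the range below the next, on a spot flagged as low signal.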

How the results depend on the processing

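The fall of Grin2d kept its direction and its side of the threshold at D3 under every alternative run, and both of its probes lost the call at D7 and in Chronic only against the 1 Control array of the same time (adjusted p of the brighter probe 0.0699 and 0.207) and at D7 in the methods' t-test after adjustment (0.0578). Against the 1 Control array of the same time, 1 subunit gene fell at D3 and 0 at either later time, and Grin1 had adjusted p of 0.0861, 0.215 and 0.254 with differences of -0.77, -0.57 and -0.68. The adjusted t-test counted 0 falling subunit genes at D7 and 1 in Chronic, and the methods' t-test without adjustment 4 at D7, 1 in Chronic against D3 and 1 in Chronic against D7. Quantile normalization counted 1 in Chronic against D3. Without 1 array, the number of subunit genes past the threshold ranged over 2 to 4 (D3), 1 to 3 (D7) and 2 to 3 (Chronic), with 1 at D7 without Control replicate 26, 36 or 47.

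With no fold limit the counts were 3, 2 and 3 subunit genes. The 2-fold fall of Grin3a in Chronic gave a count of 0 with only the groups compared, against the same-time Control array, in both forms of the methods' t-test and for the mean of all probes of a gene, and 0 to 1 without 1 array (0 without Chronic replicate 44 or Control replicate 26, 36 or 47). Among all probes, 395, 146 and 207 fell at least 2-fold, and 4815, 4021 and 3311 with no fold limit. Quantile normalization gave 256 at D3 and 130 in Chronic, percentile 75 gave 66 at D7 and 121 in Chronic, the same-time Control array 188, 52 and 13, and the methods' t-test after adjustment 21 at D7 and 61 in Chronic. Without 1 array these counts ranged over 280 to 414, 87 to 211 (87 without D7 replicate 33) and 144 to 295. Percentile 75 moved the median of all probes at D7 and in Chronic to 0.05 and 0.03, from -0.06 and -0.08.

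Directions turned only for values that had not passed, and those of Grin3b rest on spots near background and have no reliable size. These were Grin2c in Chronic under quantile normalization (0.043), GE21864 of Grin2c at D7 (-0.028) and Grin3b in Chronic (-0.77) against the same-time Control array, and Grin3b without Control replicate 36 (-0.30 at D7 and -0.22 in Chronic, with highest values of 1.13 and 1.20 without another array). Under quantile normalization the ratio to Grin1 turned for Grin2a at D7 (-0.28) and in Chronic (-0.27), for Grin2b at D3 (-0.14), D7 (-0.17) and in Chronic (-0.020) and for Grin3a at D3 (-0.27), and that of Grin2b to Grin2a at D7 (0.11). With the mean of all probes, Grin3a to Grin1 at D7 was 0.14 and Grin2b to Grin2a at D7 was 0.059. Without 1 array, Grin2a to Grin1 lay at D3 between -0.29 and 0.40, at D7 between -0.19 and 0.33 and in Chronic between -0.022 and 0.39, Grin3a to Grin1 from -0.19 to 0.078 at D3 and -0.18 to 0.11 at D7, and Grin2b to Grin2a at D3 between -0.18 and 0.42, at D7 between -0.27 and 0.26 and in Chronic between -0.15 and 0.30. The cause was not tested in any of these cases. No paired analysis was possible because no number recurs in another group. A separate background correction and a slide or scan block were not run, since no background column or scan date was used. Signal over background limits Grin2a and Grin3b, and 3 Control arrays limit every comparison with Control.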
